A study of Mus musculus with 6 samples.

Results

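The genes described here encode collagens, laminins, integrins and a small set of other extracellular matrix genes, several of them typical of the meninges, in hippocampi of 6-month-old mice. They were chosen by gene name: symbols of the form Col, a number, a and a number; Lama, Lamb or Lamc with a digit; Itga or Itgb with a digit, except Itgb2; and Dcn, Lum, Fn1, Nid1, Nid2, Hspg2, Bmp6, Fbln5 and Igfbp2. The rule found 66 genes among the 15639 rows of the gene table: 30 collagen chains, 10 laminin chains, 15 integrin chains, 2 proteins that bind integrins or carry their name, and 9 other genes. A further 23 symbols of the same families, among them Col2a1, Col9a1, Col4a6 and Itga2, were not among the rows.

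The series holds 3 libraries labelled APP/PS1, from mice that carry the APP695swe and PS1-dE9 mutations, and 3 libraries labelled wild type (WT), all of total RNA from hippocampus and each numbered as replicates 1 to 3. The labels name neither the mouse strain nor the promoter that drives the transgenes, and leave it unsaid whether each replicate is an animal of its own. P-values therefore cover the spread among 6 libraries, which may be technical in part or whole. Gene levels are the values deposited by the authors, taken to be FPKM (fragments scaled by transcript length and by library total). No header names that unit, and it was inferred. The values summed to between 182354.5 and 185216.8 FPKM per library. The sequencing depth behind them is unknown. App encodes the amyloid precursor protein. In APP/PS1 replicates 1 to 3 it stood at 153.1, 71.0 and 166.2 FPKM, and in WT replicates 1 to 3 at 69.8, 68.5 and 145.6 FPKM. Prnp, the prion protein gene, had 471.6, 198.6 and 463.8 FPKM under the APP/PS1 label and 188.1, 181.5 and 457.2 FPKM under the WT label. Both genes thus went against the label of APP/PS1 replicate 2 and of WT replicate 3. APP/PS1 and WT are therefore labels in what follows, and counts are also given for the other 4 libraries, a choice made after the values were seen.

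Collagens are trimers of chains wound into a triple helix, and the family is divided by what the trimers build: fibrils, the sheets of basement membranes, beaded or hexagonal networks, or links between fibrils. Laminins are cross-shaped trimers of an alpha, a beta and a gamma chain that seed basement membranes, where nidogens and perlecan tie them to type IV collagen. Integrins are cell surface receptors, each an alpha chain paired with a beta chain, that hold cells to these proteins and signal from them. In the brain the fibrillar collagens are made mainly by fibroblasts of the meninges and along large vessels, and basement membranes surround every capillary.

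Promoter sequence is shown for 4 genes the results turn on: Col3a1, the defining meningeal fibroblast gene of the set; Col1a2, which encodes a chain of type I collagen; and Col6a1 and Bmp6, the most abundant of the 5 genes with the smallest p-values. RefSeq (GRCm38.p6) promoter entries were at hand for 47 of the 66 genes, in 52 windows. The 150 bases before each gene's start are given 5′ to 3′ on the gene's own strand, with matches on either strand in capitals. The motifs searched were the CCAAT box (CCAAT), the TATA box (spelled as TATAAA) and the GC box (spelled as GGGCGG), none of which overlap in the stretches shown. The Col3a1 stretch is chr1:45311388-45311537 (plus strand), the Col1a2 stretch chr6:4505468-4505617 (plus), the Col6a1 stretch chr10:76726045-76726194 (minus) and the Bmp6 stretch chr13:38345566-38345715 (plus).
Col3a1: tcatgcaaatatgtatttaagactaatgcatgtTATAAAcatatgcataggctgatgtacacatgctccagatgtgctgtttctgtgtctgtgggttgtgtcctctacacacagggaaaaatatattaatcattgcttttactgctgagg
Col1a2: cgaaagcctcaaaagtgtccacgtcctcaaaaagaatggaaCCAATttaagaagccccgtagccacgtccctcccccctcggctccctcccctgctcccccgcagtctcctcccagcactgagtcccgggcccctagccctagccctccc
Col6a1: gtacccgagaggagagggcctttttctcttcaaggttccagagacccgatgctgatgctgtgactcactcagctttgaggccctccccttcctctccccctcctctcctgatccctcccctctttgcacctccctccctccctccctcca
Bmp6: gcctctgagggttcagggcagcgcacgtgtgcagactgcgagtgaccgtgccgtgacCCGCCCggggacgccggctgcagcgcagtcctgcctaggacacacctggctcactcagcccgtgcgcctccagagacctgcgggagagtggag
The TATAAA of Col3a1 began 117 bases before the start, the CCAAT of Col1a2 109 bases before it, and the opposite-strand GGGCGG of Bmp6 93 bases before it. Col6a1 held none of these letters in its 150 bases. CCAAT stood in 24.5% of all 32851 RefSeq windows of this length and in 17.3% of the 52 windows of the set, TATAAA in 7.6% and 3.8%, and GGGCGG in 28.6% and 48.1%. These matches describe the letters only.

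The most abundant gene of the set was Igfbp2, an insulin-like growth factor binding protein, with a mean of 30.7 FPKM over all 6 libraries. Next came the integrin chains Itgb1 and Itgb5 and the collagen chain Col4a2. The remaining levels were low: 15 of the 66 genes averaged at least 5 FPKM and 17 averaged under 1 FPKM. Summed over the 66 genes, the level lay between 217.4 and 250.1 FPKM per library, lowest in APP/PS1 replicate 3 and highest in APP/PS1 replicate 2.

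Between the labels, 0 of the set passed an adjusted p of 0.05. The test, limma on log2(FPKM + 1), took in 13700 genes that reached 1 FPKM in 3 or more libraries, 49 of the 66 among them. Fold changes on that scale understate the change of low genes, and p-values were adjusted over all genes tested (Benjamini-Hochberg). None of the 49 reached 1 FPKM in every library of 1 label and in no library of the other. Lama1, however, reached it in every WT-labelled library and, under the APP/PS1 label, only in replicate 2. The WT-labelled libraries alone would have carried it past the filter. Of all genes tested 0.0219% passed, 0.0073% higher and 0.0146% lower. At an unadjusted p under 0.05 stood 5 of the 49 (10.2%, against 6.69% of all genes). They were 1 gene of the set on the higher side, Col6a1, which is 2.04% of the 49 against 2.85% of all genes, and 4 on the lower side, Itga7, Bmp6, Col9a2 and Lama1, which is 8.16% against 3.83% of all genes. The lower count was 8 without APP/PS1 replicate 2, and 2 without WT replicate 2 or without APP/PS1 replicate 3. Over all genes, those lower after adjustment numbered 22, 1 and 3 in these settings, against 2 with every library. The higher count was 3 without WT replicate 3, where 5 of all genes were higher after adjustment, against 1 with every library. Shares of all genes at an unadjusted p under 0.05 were not counted with single libraries left out. In the 4 libraries the counts were 2 higher and 6 lower, against 4.2% and 4.98% of all genes, and again 0 of the set passed after adjustment, against 0.0803% of all genes higher and 0.117% lower. Of the 49, 21 had a positive log2 fold change, against 49.6% of all genes, and 28 a negative one (57.1%, against 50.4% of all genes), with a median of -0.01 over the set and -0.00089 over all genes tested. Log2 fold changes ran from -0.37 for Itga7 to 0.57 for Col6a1.

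**Figure D1:**
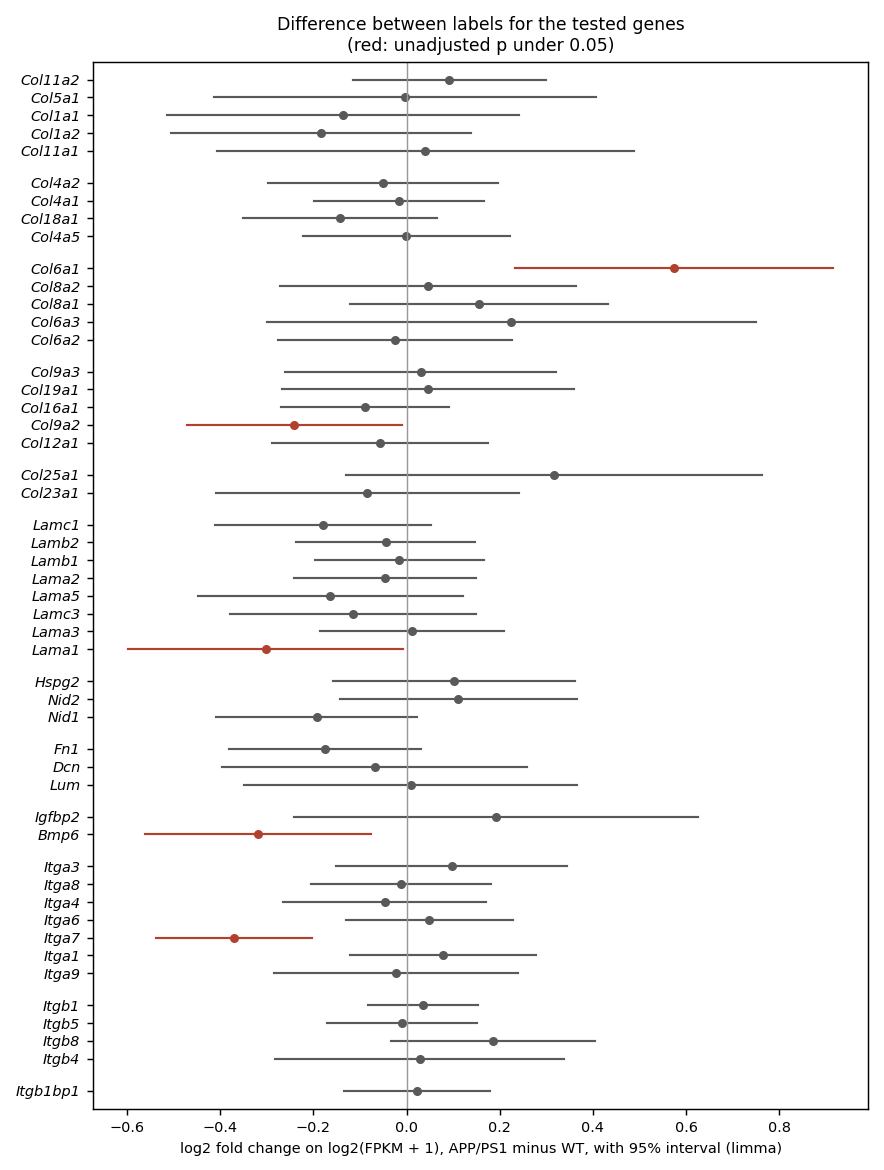
Log2 fold change (APP/PS1 minus WT, on log2(FPKM + 1)) for the 49 tested genes on the x axis, with the 95% interval from limma, in blocks by role. Intervals of 5 genes, in red, lie on 1 side of 0, from Itga7 at -0.37 to Col6a1 at 0.57, and none of the 49 passed after adjustment.

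Fibrillar collagens, the chains of the banded fibrils of connective tissue, were all listed at low levels. Col3a1, the chain of type III collagen, was listed at 0.493, 0.775 and 0.303 FPKM in APP/PS1 replicates 1 to 3 and at 0.651, 0.617 and 0.989 FPKM in WT replicates 1 to 3. The labels overlapped, with the lowest value in APP/PS1 replicate 3 and the highest in WT replicate 3, and Col3a1 lay under the filter in every library, so it was not tested. In bulk tissue, fewer cells of a type and less RNA per cell cannot be told apart. Both type I collagen chains had their extremes in the same 2 libraries. Col1a1 was listed at 2.20, 2.04 and 1.16 FPKM under the APP/PS1 label and at 1.78, 1.96 and 2.39 FPKM under the WT label (log2 fold change -0.14, SE 0.16, limma adjusted p = 0.928). Col1a2 was listed at 1.38, 1.95 and 1.08 FPKM in APP/PS1, against 1.61, 1.71 and 2.01 FPKM in WT (log2 fold change -0.18, SE 0.14, limma adjusted p = 0.877). For these 3 genes APP/PS1 replicate 2 resembled the WT-labelled libraries more than it did APP/PS1 replicate 3.

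Other fibrillar chains followed different orders of libraries. Col11a2, a type XI chain, was the most abundant fibrillar chain. It was listed at 3.58, 3.04 and 3.69 FPKM in APP/PS1 and at 3.41, 3.18 and 2.88 FPKM in WT, with means of 3.43 ± 0.348 FPKM under the APP/PS1 label and 3.16 ± 0.266 FPKM under the WT label (SD, n = 3 each). Its partner Col11a1 averaged 1.24 ± 0.456 FPKM in APP/PS1 and 1.18 ± 0.435 FPKM in WT. Col5a1 and Col5a2, the chains of type V collagen that set fibril width, averaged 2.0 ± 0.298 and 1.0 ± 0.164 FPKM under the APP/PS1 label and 2.05 ± 0.694 and 0.973 ± 0.0485 FPKM under the WT label. Col5a1 was lowest, and not highest, in WT replicate 3, at 1.29 FPKM. Col27a1 lay above the WT-labelled libraries in all APP/PS1-labelled ones, but narrowly, at 0.896, 0.896 and 0.901 FPKM in APP/PS1, against 0.881, 0.884 and 0.709 FPKM in WT. The 5 tested fibrillar chains had a median log2 fold change of -0.00302.

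**Figure D2:**
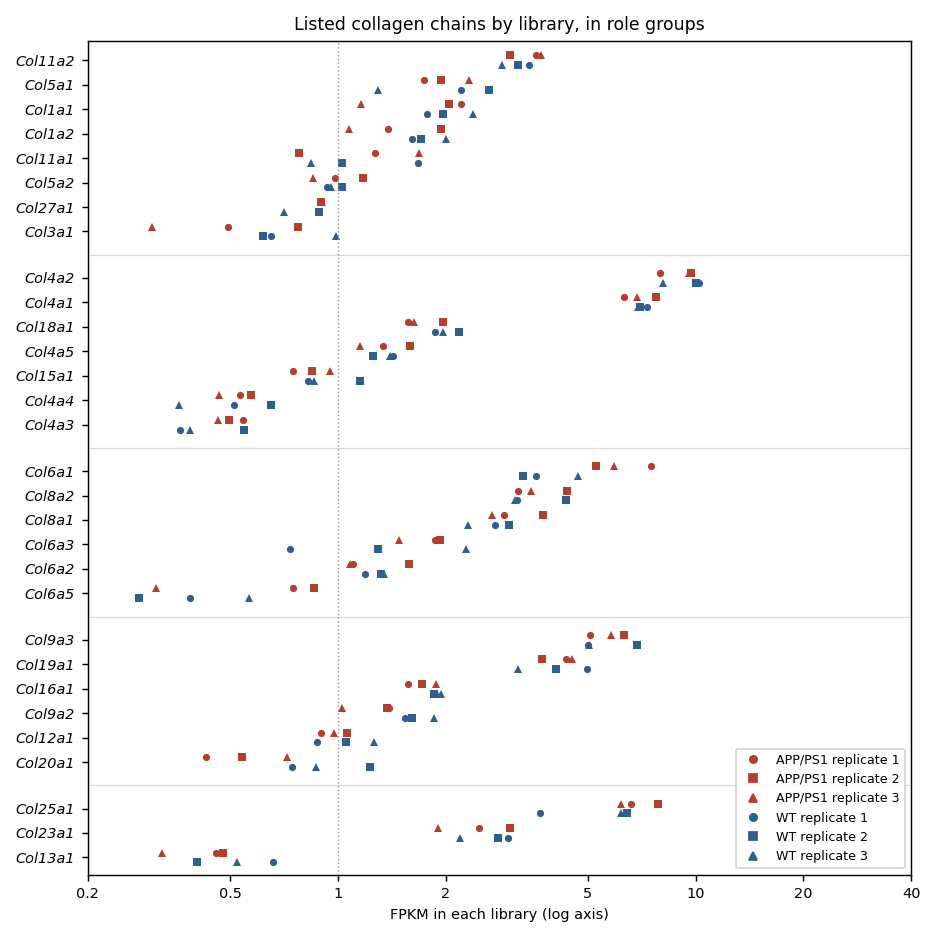
FPKM of the 30 listed collagen chains in each of the 6 libraries (log axis), APP/PS1 in red above WT in blue for each gene; blocks from top to bottom are fibrillar, basement membrane, network and anchoring, fibril-associated, and transmembrane chains, and the dotted line marks 1 FPKM. Col4a2 and Col4a1 are among the highest, Col6a1 has all red points to the right of the blue ones, and Col3a1 spreads from 0.303 to 0.989 FPKM.

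Basement membrane collagens were dominated by the alpha 1 and alpha 2 chains of type IV collagen, which form the common trimer of vascular basement membranes. Col4a2 was listed at 7.94, 9.68 and 9.57 FPKM under the APP/PS1 label and at 10.2, 9.996 and 8.10 FPKM under the WT label. Col4a1 was listed at 6.32, 7.76 and 6.87 FPKM in APP/PS1, against 7.29, 6.99 and 6.88 FPKM in WT. The labels overlapped for both, and their log2 fold changes were -0.05 (95% interval -0.30 to 0.20) and -0.02 (-0.20 to 0.17). Col4a2 stood at 1.30 ± 0.0813 times Col4a1 in the APP/PS1-labelled and 1.33 ± 0.138 times in the WT-labelled libraries, within 1.18 to 1.43 in every library. In the RefSeq annotation these neighbours are read away from each other and their 5′ ends overlap by 22 bases, shown because it is the stretch the pair shares (chr8:11312805-11312826, GRCm38.p6, plus strand, which is the Col4a2 strand). Motifs are not put in capitals in this stretch, which does hold the letters GGGCGG.
Col4a1 and Col4a2 overlap: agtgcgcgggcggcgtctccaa

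Type IV chains of specialised membranes were far lower. Col4a5 averaged 1.36 ± 0.220 FPKM under the APP/PS1 label and 1.36 ± 0.0904 FPKM under the WT label. Col4a3 and Col4a4, which overlap each other in RefSeq as well, stayed between 0.361 and 0.651 FPKM and were not tested. Col18a1, the source of endostatin, averaged 1.72 ± 0.216 FPKM in APP/PS1, against 2.0 ± 0.156 FPKM in WT (log2 fold change -0.14, 95% interval -0.35 to 0.06). All 4 tested chains of this group had negative log2 fold changes, against 50.4% of all genes tested. Their median was -0.03, and none had an unadjusted p under 0.05. The median was 0.0184 without APP/PS1 replicate 1 and 0.00418 without WT replicate 1, so its sign rested on single libraries.

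Among network and anchoring collagens stood the largest log2 fold change of the 49 tested genes. Col6a1, the alpha 1 chain of the beaded type VI filaments, was listed at 7.52, 5.28 and 5.90 FPKM in APP/PS1 replicates 1 to 3 and at 3.57, 3.30 and 4.70 FPKM in WT replicates 1 to 3. Every APP/PS1-labelled library lay above every WT-labelled one, though APP/PS1 replicate 2 and WT replicate 3 stood nearest to each other. The means were 6.23 ± 1.16 FPKM in APP/PS1 and 3.85 ± 0.745 FPKM in WT, 1.62 times apart (log2 fold change 0.57, SE 0.15, unadjusted p = 0.0052, limma adjusted p = 0.547). In the 4 libraries the log2 fold change was 0.79 (limma adjusted p = 0.18), and it lay between 0.45 and 0.70 with each library left out in turn.

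The partner chains of Col6a1 did not show that split. Col6a2, which joins the same trimer, was listed at 1.10, 1.59 and 1.08 FPKM under the APP/PS1 label and at 1.19, 1.32 and 1.35 FPKM under the WT label (log2 fold change -0.02, 95% interval -0.28 to 0.23). Per library, Col6a1 stood at 6.81, 3.33 and 5.45 times Col6a2 in the APP/PS1-labelled libraries and at 3.0, 2.50 and 3.49 times in the WT-labelled libraries, and these ratios overlapped. Col6a3, the large alpha 3 chain, was listed at 1.87, 1.93 and 1.48 FPKM in APP/PS1, against 0.736, 1.30 and 2.28 FPKM in WT, with the WT-labelled libraries spread around the others. Col6a5 ran from 0.279 to 0.860 FPKM and was not tested.

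Col8a1 and Col8a2, which form the hexagonal type VIII networks of vessel walls and corneal membranes, had log2 fold changes of 0.16 and 0.05. Col8a1 was listed at 2.92, 3.76 and 2.70 FPKM under the APP/PS1 label and at 2.75, 3.003 and 2.32 FPKM under the WT label. In the 4 libraries its log2 fold change was -0.03. APP/PS1 replicate 2 held the highest value of 4 of the 6 genes in this group, against 13.3% of all rows.

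Fibril-associated collagens, which coat or link fibrils, held 2 genes of 6 whose APP/PS1-labelled libraries all lay below the WT-labelled ones, which was so for 6.38% of all rows. Col9a2, a type IX chain best known from cartilage, was listed at 1.39, 1.37 and 1.03 FPKM under the APP/PS1 label and at 1.55, 1.61 and 1.85 FPKM under the WT label (log2 fold change -0.24, SE 0.10, unadjusted p = 0.0427, limma adjusted p = 0.741). The value lay between -0.28 and -0.16 with each library left out in turn and was -0.23 in the 4 libraries (limma adjusted p = 0.645). Col20a1 was listed at 0.427, 0.541 and 0.719 FPKM in APP/PS1, against 0.744, 1.23 and 0.870 FPKM in WT and lay under the filter. Col9a3, the partner of Col9a2 and the most abundant of the group, was listed at 5.07, 6.29 and 5.82 FPKM in APP/PS1 and at 4.99, 6.87 and 5.02 FPKM in WT. Col19a1, a collagen known from some interneurons and their synapse formation, averaged 4.19 ± 0.407 FPKM in APP/PS1 and 4.07 ± 0.891 FPKM in WT. Col12a1 and Col16a1 had log2 fold changes of -0.06 and -0.09. Col25a1, a transmembrane collagen whose shed part is found in amyloid plaques of Alzheimer's disease, was listed at 6.59, 7.83 and 6.16 FPKM under the APP/PS1 label and at 3.66, 6.42 and 6.18 FPKM under the WT label. The labels overlapped and a single low library, WT replicate 1, stood apart (log2 fold change 0.32, SE 0.19, limma adjusted p = 0.832). The other transmembrane chains, Col23a1 and Col13a1, averaged 2.47 ± 0.555 and 0.419 ± 0.0840 FPKM under the APP/PS1 label and 2.66 ± 0.413 and 0.528 ± 0.126 FPKM under the WT label.

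Laminin chains were led by Lamc1, Lamb2 and Lamb1, the gamma 1 and beta chains shared by most vascular and glial laminins. Lamc1 was listed at 6.45, 8.11 and 6.37 FPKM under the APP/PS1 label and at 8.38, 7.32 and 8.31 FPKM under the WT label (log2 fold change -0.18, SE 0.10, limma adjusted p = 0.817). APP/PS1 replicate 2 lay among the WT-labelled libraries. Lamb2 and Lamb1 averaged 6.33 ± 0.731 and 5.19 ± 0.461 FPKM under the APP/PS1 label, against 6.54 ± 0.154 and 5.25 ± 0.281 FPKM under the WT label. Their ratio stayed within 1.17 and 1.30 in all 6 libraries.

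Of the alpha chains, Lama1 had the smallest p. It is the alpha chain of early embryonic and of pial laminin, and was listed at 0.999, 1.26 and 0.632 FPKM under the APP/PS1 label and at 1.42, 1.35 and 1.43 FPKM under the WT label. The labels did not overlap, and the WT-labelled libraries lay close together (log2 fold change -0.30, SE 0.13, unadjusted p = 0.0455, limma adjusted p = 0.741). The log2 fold change was -0.18 without APP/PS1 replicate 3 (limma adjusted p = 0.887), lay between -0.41 and -0.18 with each library left out in turn, and was -0.40 in the 4 libraries (limma adjusted p = 0.515). Lama2, the astrocytic and mural alpha chain that was the most abundant here, averaged 2.62 ± 0.221 FPKM in APP/PS1 and 2.74 ± 0.242 FPKM in WT. Lama5, of mature endothelial membranes, was listed at 1.98, 2.13 and 1.88 FPKM in APP/PS1, against 2.81, 2.53 and 1.80 FPKM in WT, with WT replicate 3 below all others. Lama3 and Lamc3 had log2 fold changes of 0.01 and -0.11, and Lama4 lay under the filter and was not tested. Of the 8 tested laminins 7 had negative log2 fold changes, against 50.4% of all genes tested, with a median of -0.08. In APP/PS1 replicate 3, 7 of all 10 laminins were lowest, against 17.9% of all rows. Without APP/PS1 replicate 3 the median of the tested laminins was -0.0107, and leaving out APP/PS1 replicate 2 in its place gave -0.155.

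**Figure D3:**
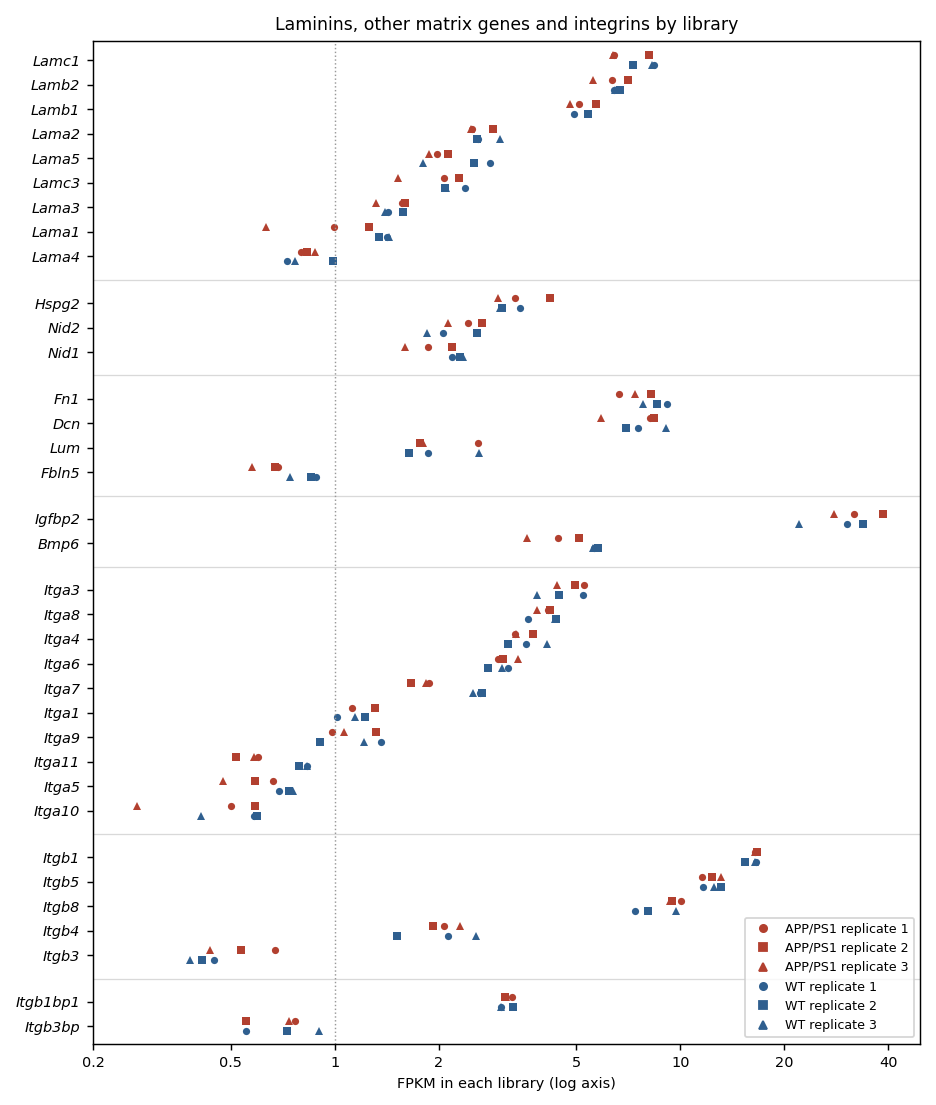
FPKM of laminin, matrix and integrin genes in each of the 6 libraries (log axis), APP/PS1 in red above WT in blue; blocks from top to bottom are laminins, nidogens and perlecan, interstitial proteins, secreted factors, integrin alpha chains, integrin beta chains and integrin-binding proteins, and the dotted line marks 1 FPKM. Igfbp2 and Itgb1 lie farthest right, and the red and blue points of Itga7, Itga11 and Bmp6 do not overlap.

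Of the basement membrane linkers, Nid1 had APP/PS1-labelled libraries that all lay below the WT-labelled ones, at 1.86, 2.18 and 1.60 FPKM in APP/PS1, against 2.19, 2.31 and 2.36 FPKM in WT (log2 fold change -0.19, 95% interval -0.41 to 0.02). The gap between APP/PS1 replicate 2 and WT replicate 1 was narrow, at 2.18 FPKM in the first and 2.19 FPKM in the second. Nid2, its homologue, had a log2 fold change of 0.11 and perlecan (Hspg2), the heparan sulfate proteoglycan of these membranes, of 0.10, and both overlapped between the labels.

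Interstitial matrix genes were led by Fn1 (fibronectin) and Dcn (decorin, a collagen-binding proteoglycan). Fn1 was listed at 6.66, 8.21 and 7.42 FPKM under the APP/PS1 label and at 9.17, 8.54 and 7.80 FPKM under the WT label (log2 fold change -0.17, SE 0.09, limma adjusted p = 0.806). Dcn was listed at 8.16, 8.402 and 5.92 FPKM in APP/PS1, against 7.54, 6.99 and 9.08 FPKM in WT, with its extremes in the same 2 libraries as the type I and type III collagens. Lum (lumican), a related proteoglycan, averaged 2.06 ± 0.478 FPKM in APP/PS1 and 2.04 ± 0.510 FPKM in WT. Fbln5, an organiser of elastic fibres, was listed at 0.684, 0.672 and 0.578 FPKM in APP/PS1, against 0.883, 0.853 and 0.744 FPKM in WT without overlap, under the filter.

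The secreted factors of the set had opposite signs. Bmp6, a bone morphogenetic protein expressed by meninges and endothelium, was listed at 4.43, 5.09 and 3.61 FPKM under the APP/PS1 label and at 5.61, 5.77 and 5.60 FPKM under the WT label. Every APP/PS1-labelled library lay below every WT-labelled one, with APP/PS1 replicate 2 nearest (log2 fold change -0.32, SE 0.10, unadjusted p = 0.0167, limma adjusted p = 0.643). The log2 fold change lay between -0.41 and -0.21 with each library left out in turn, smallest in size without APP/PS1 replicate 3, and was -0.42 in the 4 libraries (limma adjusted p = 0.407). Txndc5, a protein disulfide isomerase gene that overlaps Bmp6 in RefSeq, was listed at 9.68, 10.005 and 5.06 FPKM in APP/PS1, against 10.3, 10.2 and 10.6 FPKM in WT, so APP/PS1 replicate 3 was the lowest for both. The sources used here do not say whether the authors' counting used strand, and reads shared by the pair cannot be told apart. Igfbp2 was listed at 31.8, 38.6 and 27.8 FPKM under the APP/PS1 label and at 30.3, 33.8 and 22.1 FPKM under the WT label (log2 fold change 0.19, 95% interval -0.24 to 0.63). It was lowest in WT replicate 3, and without WT replicate 3 and APP/PS1 replicate 2 its log2 fold change was -0.10.

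Integrin alpha chains included the gene with the smallest p of the set. Itga7, the alpha 7 chain of a laminin receptor known from muscle, was listed at 1.87, 1.66 and 1.84 FPKM under the APP/PS1 label and at 2.63, 2.66 and 2.52 FPKM under the WT label. The labels were well apart, and here APP/PS1 replicate 2 was the lowest library of all (1.79 ± 0.113 FPKM in APP/PS1 and 2.60 ± 0.0731 FPKM in WT, log2 fold change -0.37, SE 0.07, unadjusted p = 0.00113, limma adjusted p = 0.338). The log2 fold change lay between -0.39 and -0.34 with each library left out in turn, and was -0.35 in the 4 libraries (limma adjusted p = 0.409). The protein-coding gene Mettl7b, a long non-coding RNA gene and a pseudogene overlap Itga7 in RefSeq. Itga11, a collagen receptor chain, was listed at 0.602, 0.519 and 0.584 FPKM in APP/PS1, against 0.830, 0.790 and 0.830 FPKM in WT without overlap. Itga5, the fibronectin receptor chain, was listed at 0.663, 0.590 and 0.474 FPKM in APP/PS1, against 0.691, 0.737 and 0.758 FPKM in WT, also without overlap. Both lay under the filter and were not tested.

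The more abundant alpha chains overlapped between the labels. Itga3, the most abundant of them, was listed at 5.26, 4.97 and 4.41 FPKM in APP/PS1 and at 5.22, 4.47 and 3.86 FPKM in WT. Itga3 and Itga6, of laminin receptors, averaged 4.88 ± 0.429 and 3.14 ± 0.222 FPKM under the APP/PS1 label and 4.51 ± 0.682 and 3.0 ± 0.196 FPKM under the WT label. Itga8 and Itga4 had log2 fold changes of -0.01 and -0.05, and the collagen receptor chain Itga1 of 0.08. The 7 tested alpha chains had a median of -0.01.

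Integrin beta chains held 3 of the 5 most abundant genes of the set, Itgb1, Itgb5 and Itgb8. Itgb1, the partner of most alpha chains listed here, was listed at 16.4, 16.7 and 16.4 FPKM in APP/PS1 and at 16.5, 15.4 and 16.4 FPKM in WT. Its means were 16.5 ± 0.163 FPKM under the APP/PS1 label and 16.1 ± 0.636 FPKM under the WT label (log2 fold change 0.03, 95% interval -0.08 to 0.15), with a ratio of 1.09 between its highest and lowest library. Of the 66 genes only Itgb1bp1 had as narrow a range. Itgb5, of a vitronectin receptor, was listed at 11.5, 12.3 and 13.15 FPKM in APP/PS1 and at 11.6, 13.16 and 12.5 FPKM in WT. Itgb8, the glial partner of the alpha v chain in the release of active TGF-beta, was listed at 10.1, 9.44 and 9.36 FPKM in APP/PS1, against 7.39, 8.08 and 9.69 FPKM in WT. Its labels overlapped through WT replicate 3 (log2 fold change 0.19, SE 0.09, limma adjusted p = 0.806). Itgb4 averaged 2.10 ± 0.196 FPKM in APP/PS1 and 2.07 ± 0.525 FPKM in WT, and Itgb3 0.547 ± 0.118 FPKM in APP/PS1 and 0.414 ± 0.0323 FPKM in WT. Itgb1bp1, a cytoplasmic regulator of beta 1 integrin, averaged 3.17 ± 0.0813 FPKM in APP/PS1 and 3.11 ± 0.147 FPKM in WT. Itgb3bp, a gene with an integrin name whose product is a centromere protein, averaged 0.688 ± 0.116 FPKM in APP/PS1 and 0.728 ± 0.175 FPKM in WT.

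**Figure D4:**
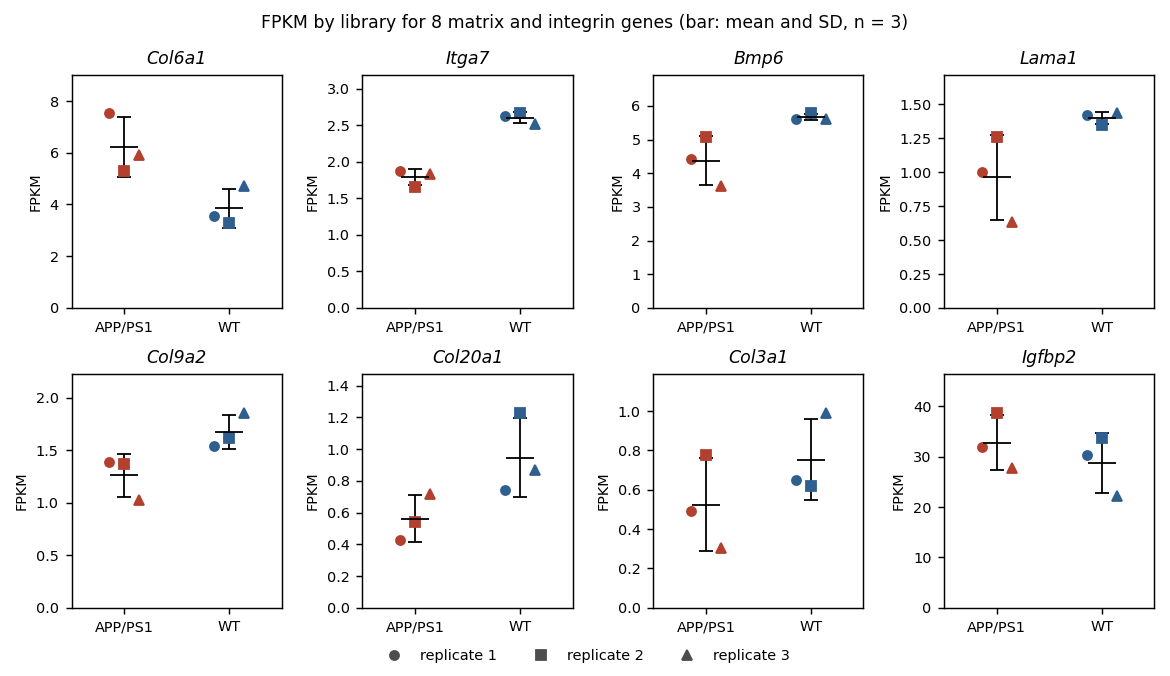
FPKM (y axis from 0) of 8 genes in the 3 APP/PS1-labelled and 3 WT-labelled libraries, 1 symbol per replicate number, with the mean and SD. Col6a1 lies higher and Itga7, Bmp6, Lama1, Col9a2 and Col20a1 lower in every APP/PS1-labelled library, while Col3a1 and Igfbp2 overlap between the labels.

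Counted over all 66 genes, tested or not, the labels did not overlap for 2 genes on the higher side, Col6a1 and Col27a1 (3.03%, against 5.41% of all rows), and for 9 on the lower side (13.6%, against 6.38% of all rows). The 9 were Itga7, Itga11, Itga5, Bmp6, Lama1, Nid1, Fbln5, Col9a2 and Col20a1, and 6 of them were lowest in APP/PS1 replicate 3. That library held the lowest value of 23 of the 66 genes, or 34.8%, against 17.9% of all rows of the table. APP/PS1 replicate 2 held the lowest value of 3 genes (4.55%, against 12.2% of all rows) and the highest of 17 (25.8%, against 13.3%). The 3 APP/PS1-labelled libraries thus differed among themselves in this set, with replicates 2 and 3 at opposite ends. The integrin chains did not share this. APP/PS1 replicate 3 was lowest for 2 of 10 alpha chains and 0 of 5 beta chains. APP/PS1 replicate 2 was highest for 1 of 10 alpha chains and 1 of 5 beta chains. The genes are not independent of each other, and no test was made of these counts.

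**Figure D5:**
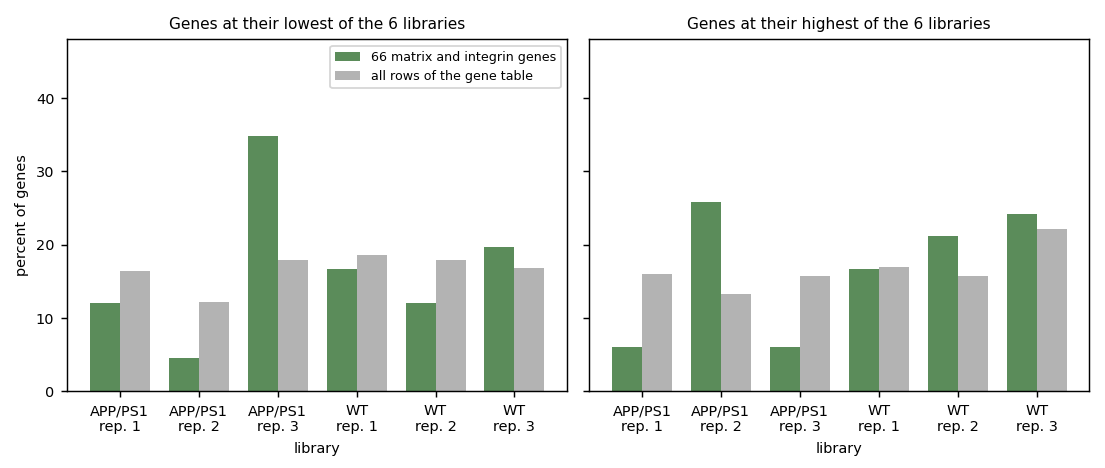
Percent of genes (y axis) whose lowest value (left) or highest value (right) fell in each of the 6 libraries (x axis), for the 66 matrix and integrin genes in green and all 15639 rows in grey. APP/PS1 replicate 3 held 34.8% of the lowest values of the set against 17.9% of all rows, and APP/PS1 replicate 2 held 25.8% of the highest against 13.3%.

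Markers of meningeal fibroblasts outside the set had their extremes in some of the same libraries. Of all rows, 17.9% were lowest in APP/PS1 replicate 3 and 22.1% highest in WT replicate 3. Of 20 such markers 19 were listed, and 13 of the 19 were lowest in the first of these libraries while 9 were highest in the second. Their summed level was 185.4, 275.8 and 131.4 FPKM in APP/PS1 replicates 1 to 3 and 221.6, 259.4 and 261.6 FPKM in WT replicates 1 to 3, most of it from Ptgds, a prostaglandin synthase that other brain cells make too. Aldh1a2, a retinoic acid synthesis enzyme typical of the meninges, was listed at 2.10, 4.74 and 1.43 FPKM in APP/PS1, against 4.06, 4.75 and 6.16 FPKM in WT. Foxc1, a transcription factor of meningeal and mural cells, was listed at 1.68, 2.34 and 1.28 FPKM in APP/PS1, against 2.39, 2.52 and 2.61 FPKM in WT (log2 fold change -0.36, limma adjusted p = 0.717). Of the 16 tested markers 13 had negative log2 fold changes, against 50.4% of all genes tested, with a median of -0.29. At an unadjusted p under 0.05, 1 of the markers lay lower and 0 higher, against 3.83% and 2.85% of all genes tested. The part of these cells in the values of Col3a1, Col1a1, Col1a2, Dcn, Lama1 and Bmp6 was not tested.

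Vessel and plexus markers were read in the same way. The 11 mural markers summed to 62.2, 81.5 and 61.6 FPKM under the APP/PS1 label and to 75.3, 72.7 and 77.7 FPKM under the WT label. Of the 9 tested, 7 had negative log2 fold changes, against 50.4% of all genes tested, with a median of -0.08. None of the 9 had an unadjusted p under 0.05. Acta2, the smooth muscle actin, was listed at 4.89, 12.5 and 4.72 FPKM in APP/PS1, against 13.4, 8.89 and 10.9 FPKM in WT. The 13 endothelial markers summed to 73.3, 81.3 and 81.8 FPKM in APP/PS1, against 76.7, 73.8 and 81.1 FPKM in WT, with both labels over about the same range. Of the 13, 7 were highest in APP/PS1 replicate 3, against 15.8% of all rows. Of the 12 tested, 9 had positive log2 fold changes, against 49.6% of all genes tested. At an unadjusted p under 0.05, 1 lay higher and 1 lower, against 2.85% and 3.83% of all genes. The 10 choroid plexus markers summed to 1222, 1416 and 1138 FPKM in APP/PS1, against 1090, 1227 and 875.6 FPKM in WT. Of the 10, 9 were lowest in WT replicate 3, against 16.9% of all rows, and Igfbp2 was lowest in that library too. All 10 plexus markers had positive log2 fold changes, 3 of them with an unadjusted p under 0.05, against 49.6% and 2.85% of all genes tested. Their part in the Igfbp2 values was not tested.

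Markers of some other cells also differed between labels or libraries, and their part in the values of the set was not tested. All 8 oligodendrocyte markers had positive log2 fold changes, 4 of them with an unadjusted p under 0.05, against 49.6% and 2.85% of all genes tested. The 8 markers summed to 413.9, 374.5 and 453.2 FPKM in APP/PS1 and to 343.8, 310.9 and 397.0 FPKM in WT. Of 11 markers of hippocampal neurons, such as Prox1 of dentate granule cells at 12.7 to 19.98 FPKM, 9 had negative log2 fold changes, against 50.4% of all genes tested. The sums of the 11 were 935.7, 940.6 and 921.9 FPKM in APP/PS1 and 959.0, 1008 and 989.2 FPKM in WT. All 5 listed red blood cell markers were highest in APP/PS1 replicate 3, against 15.8% of all rows. The sums of the 5 were 424.9, 356.6 and 708.5 FPKM in APP/PS1 and 481.2, 335.3 and 333.5 FPKM in WT. Other lists were split more evenly by sign. Positive log2 fold changes were held by 5 of 9 tested astrocyte markers, 3 of 8 microglia rows and 4 of 7 ependymal markers. At an unadjusted p under 0.05, 1 microglia row lay lower, against 3.83% of all genes tested. On the astrocyte and ependymal lists 0 markers reached that p. Of all these lists, 0 genes passed after adjustment.

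Genes that make, cut or bind this matrix were counted from lists of their own, and 0 of them passed after adjustment. The shares to read them against are those of all genes tested, of which 50.4% had negative log2 fold changes, and 3.83% lay lower and 2.85% higher at an unadjusted p under 0.05. Of 23 tested genes of collagen folding and cross-linking, 16 had negative log2 fold changes, 2 with an unadjusted p under 0.05, against 0 on the higher side. P4ha1, a prolyl hydroxylase that stabilises the triple helix, was listed at 13.1, 17.2 and 12.6 FPKM under the APP/PS1 label and at 18.5, 16.7 and 18.6 FPKM under the WT label (log2 fold change -0.32, limma adjusted p = 0.696). Serpinh1, the collagen chaperone, was listed at 5.81, 9.15 and 6.50 FPKM in APP/PS1, against 9.31, 9.90 and 8.31 FPKM in WT, and Adamts2, which trims procollagen, at 1.08, 1.95 and 1.12 FPKM in APP/PS1, against 1.88, 2.31 and 1.92 FPKM in WT. In all 3 genes APP/PS1 replicate 2 lay within the WT-labelled range and the other APP/PS1-labelled libraries below it.

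Of 29 other matrix proteins tested, 21 had negative log2 fold changes with a median of -0.08, and Matn2, a matrilin, was the 1 with an unadjusted p under 0.05 (log2 fold change -0.18). Among 16 matrix proteases and their inhibitors, Adamts4, an aggrecanase, had 5.47, 4.58 and 6.19 FPKM in APP/PS1, against 3.76, 4.24 and 4.50 FPKM in WT without overlap (log2 fold change 0.31, limma adjusted p = 0.691). Among 13 other matrix receptors, the syndecan Sdc4 had 25.1, 28.2 and 27.8 FPKM in APP/PS1, against 33.2, 29.8 and 31.3 FPKM in WT (log2 fold change -0.21), and the collagen receptor kinase Ddr1 had 14.2, 13.9 and 14.5 FPKM in APP/PS1, against 10.2, 12.1 and 13.7 FPKM in WT (log2 fold change 0.24), both without overlap. Itgav, the alpha v chain that the naming rule leaves out, was listed at 5.39, 4.82 and 8.97 FPKM in APP/PS1, against 4.81, 4.46 and 4.64 FPKM in WT, with APP/PS1 replicate 3 far above the rest. Of 22 integrin adhesion effectors 15 had negative log2 fold changes and 1, the kinase Ptk2b, an unadjusted p under 0.05. Of 25 TGF-beta and BMP signalling genes 0 did.

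Circular RNAs were read for the same genes. Of the 2246 circRNAs listed, 257 carried coordinates, and the 1989 known by database number alone are not paired with genes here. With the coordinates taken as printed, 0 of the 257 overlapped a gene of the set in RefSeq. The submitters' processing notes name the mm9 build, while RefSeq positions here are of GRCm38.p6, and no conversion was made. The 0 therefore cannot show whether genes of the set held circRNAs.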

How the data were processed

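Total RNA was sequenced from hippocampi, 3 libraries labelled APP/PS1 and 3 labelled WT. No header of the deposited gene tables names a unit: FPKM was inferred from decimals and totals, and because StringTie, beside HISAT2, FastQC and the mm9 build, is named in the submitters' processing notes. Every row reached 0.529 FPKM or more in some library. The deposited circRNA tables hold read counts (whole numbers), and the sources used here name no circRNA caller.

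Rows reaching 1 FPKM in 3 or more libraries (13700) entered limma 3.58.1 in R 4.3.3 with trend and robust options, on log2 of the deposited FPKM plus 1. Label was the only term, and p-values were adjusted by Benjamini-Hochberg. The step was also run on simulated data with planted changes and noise drawn independently for each gene. That run does not cover shifts shared by many genes of a library or labels in doubt, and its outcome is not given here. The values of 1 member are not reported here. Members, roles and lists were chosen with earlier results of these data known. The rule for named genes took Col3a1, up to 3 most abundant and 3 smallest-p members of a role, and up to 3 smallest-p genes of another list. Where space asked for it, their values are given as mean and SD or as a fold change and not by library. Members without overlap between labels, and a few partners of named chains, were added after their values were seen. CircRNA counts differed between every pair of libraries beyond counting noise (chi-square over its degrees of freedom 2.03 to 2.39), so no library is the same reads deposited again. Repeat preparations of 1 sample would pass this check too. The alternatives were another pseudocount, no filter, quantile scaling, limma without trend and robust options, a replicate block, each library left out and, chosen after seeing the data, 4 libraries.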

Additional observations from a re-analysis of the deposited data

How the results depend on the processing

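No gene of the set passed after adjustment under any of the 12 alternatives (other pseudocount, filter, scaling, limma settings, replicate block, each library left out, and the 4 libraries), while 10 of the 49 changed sign in the 4 libraries and 21 of the 49 kept their sign in all. Same-numbered libraries did not deviate together (correlations 0.00983, -0.0561 and -0.0941). With 3 libraries per label and deviations taken around each label's mean, this cannot decide whether the numbers pair them. With the replicate number as a block, 2 members were higher and 2 lower at an unadjusted p under 0.05, and 0 genes in all were lower after adjustment, against 2. In the 4 libraries 11 genes in all were higher and 16 lower after adjustment, App (1.19) and Prnp (1.34), which chose these libraries, among the first. There, 2 members were higher at an unadjusted p under 0.05. Among the 10 that changed sign, Col8a1 (-0.0258) and Igfbp2 (-0.101) moved by more than their SD within the labels. Medians there were -0.126 for fibrillar, -0.146 for basement membrane and -0.0258 for network collagens, -0.036 for nidogens and perlecan, -0.26 for secreted factors and 0.112 for integrin beta chains. A pseudocount of 0.1 gave a median of -0.0977 for fibril-associated collagens, and no filter gave -0.0839 for transmembrane collagens. With single libraries left out, all genes higher numbered 1 to 8 and all genes lower 1 to 22. Members higher numbered 1 to 3 and lower 2 to 8 at an unadjusted p under 0.05. Shares of all genes at that p were not counted for the block or with single libraries left out. Medians then ran from -0.0722 to 0.0471 for fibrillar, -0.0906 to 0.0184 for basement membrane, 0.00475 to 0.23 for network and -0.0935 to -0.0271 for fibril-associated collagens. They ran from -0.155 to -0.0107 for laminins, -0.149 to 0.0664 for interstitial proteins, -0.0316 to 0.0393 for integrin alpha chains and -0.07 to 0.0185 for all members. The cause of these shifts was not tested. Depth is unknown, which limits the genes under 1 FPKM most.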
